A study of Mus musculus with 12 samples.

Results

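The receptors of activin, TGF-beta and bone morphogenetic proteins (BMPs) were followed in bone marrow-derived macrophages (BMDMs) exposed to activin A, with or without the activin-binding protein follistatin. They were chosen by gene symbol: 5 type I receptors (Acvr1, Acvr1b, Acvrl1, Tgfbr1 and Bmpr1a), 4 type II receptors (Acvr2a, Acvr2b, Tgfbr2 and Bmpr2) and the co-receptor endoglin (Eng). All 10 were among the 18376 genes of the table, and all 10 were among the 14318 genes tested, which had a mean of at least 5 normalized counts over the 12 libraries. Normalized counts are reads per gene after scaling of each library by the authors. BMDMs are macrophages grown in culture from progenitor cells of the bone marrow. Here they came from adult male wild-type C57BL/6J mice, and all groups received 50 ng/ml mouse recombinant M-CSF, the growth factor that drives macrophage formation. CTRL cells had no further agent, Act cells received 50 ng/ml human recombinant activin A, FST cells received 250 ng/ml FST288, a form of follistatin, and Act+FST cells received both. RNA was collected at day 6, and each group had 3 libraries. The labels do not say whether libraries came from separate mice or cultures, so p-values measure only the spread between these libraries, which may be technical.

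Ligands of this family bind 2 kinds of transmembrane kinase at the cell surface. A type II receptor holds the ligand and phosphorylates a type I receptor, which then phosphorylates SMAD proteins that enter the nucleus and regulate genes. ACVR2A and ACVR2B, the type II receptors for activin, pair with the type I receptor ACVR1B (ALK4), while TGFBR2 pairs with TGFBR1 (ALK5), and both of these type I receptors act through SMAD2 and SMAD3. ACVR1 (ALK2), ACVRL1 (ALK1) and BMPR1A (ALK3) act through SMAD1 and SMAD5, and endoglin assists ACVRL1. Follistatin wraps around activin A so that it can no longer reach the receptors.

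Activin A went with more mRNA of 2 type I receptors and less of the co-receptor. Tgfbr1 rose 1.83-fold and Acvr1 rose 1.37-fold against CTRL, and Eng fell to 0.845 of its CTRL level. Across all genes 10.3% were called higher (adjusted p of at most 0.05) and 9.97% lower, against 2 and 1 of the 10 receptors. None of the 4 type II receptors passed the test in either direction. The same 3 genes passed against Act+FST, with the same signs, although both comparisons share the Act libraries. No receptor was called in Act+FST or in FST against CTRL.

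**Figure D1:**
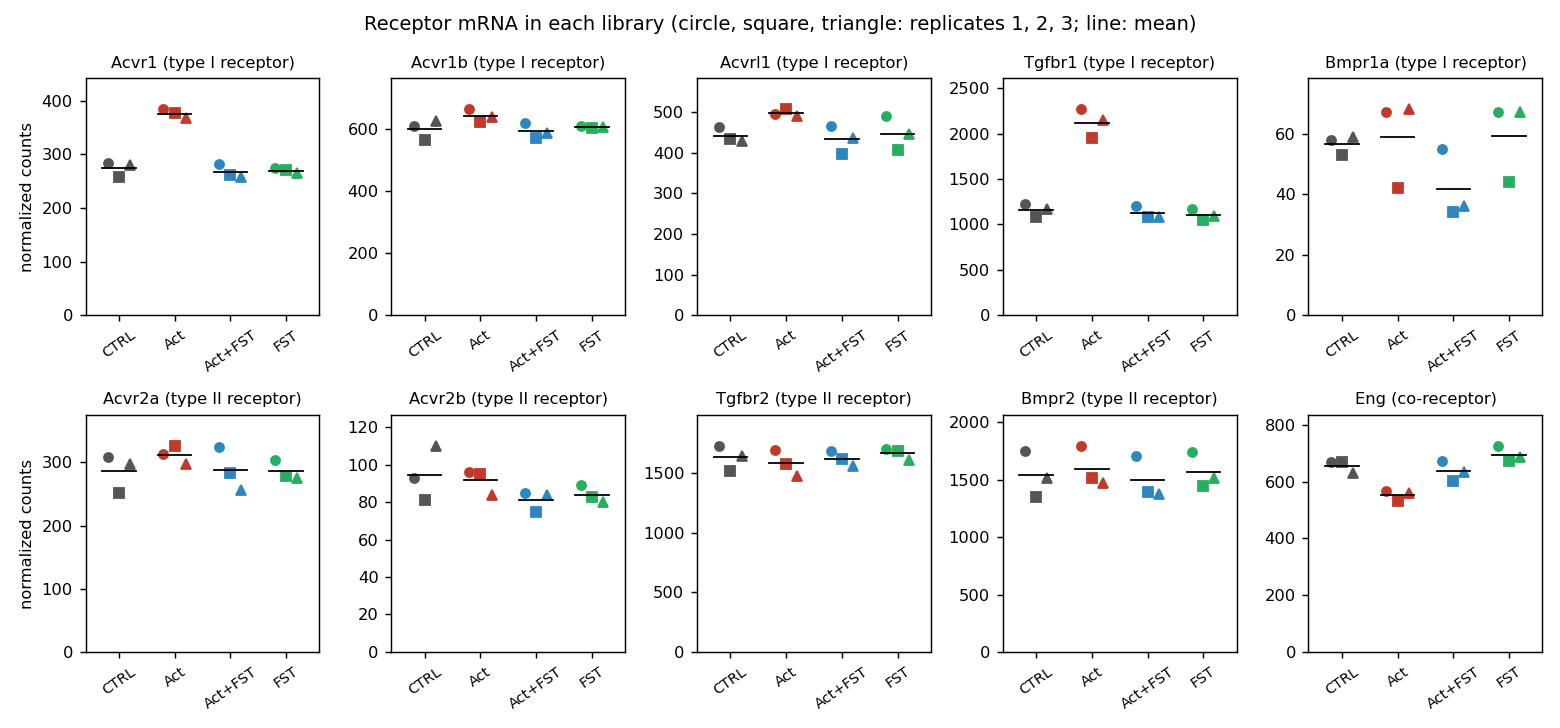
Normalized counts of the 10 receptors (vertical axes, starting at 0) in the 4 groups, where each point is a library, its shape gives the replicate number and the line is the group mean. The Act libraries stand above all others for Tgfbr1 (1950 to 2268) and Acvr1 (367 to 384) and below all others for Eng (533 to 568), while Bmpr2 is highest in replicate 1 of every group.

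DNA stretches just before the start sites of Tgfbr1 and Eng are shown because these receptors had the largest rise and the only called fall. They are the 250 bases before the RefSeq start, for Tgfbr1 the upstream of its 2 starts (build GRCm38.p6, plus strand), at chr4:47352972-47353221 for Tgfbr1 and chr2:32646345-32646594 for Eng. Capitals mark GGCGCC, a core that SMAD1 and SMAD5 can bind, and CAGAC or its reverse complement GTCTG, a core that SMAD3 and SMAD4 can bind.
Tgfbr1: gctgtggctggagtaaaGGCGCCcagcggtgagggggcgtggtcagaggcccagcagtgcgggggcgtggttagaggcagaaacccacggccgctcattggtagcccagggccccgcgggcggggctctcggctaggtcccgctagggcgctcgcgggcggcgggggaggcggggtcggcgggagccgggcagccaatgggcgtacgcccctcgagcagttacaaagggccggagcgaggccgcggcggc
Eng: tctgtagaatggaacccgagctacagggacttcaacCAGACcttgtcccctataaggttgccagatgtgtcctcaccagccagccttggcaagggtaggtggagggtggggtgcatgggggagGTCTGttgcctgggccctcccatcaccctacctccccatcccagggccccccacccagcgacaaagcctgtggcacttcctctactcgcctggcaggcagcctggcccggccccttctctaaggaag

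The Tgfbr1 stretch held GGCGCC once, with its first base at -233 from the start site, and no CAGAC. The window of the downstream Tgfbr1 start, which is not printed, held CAGAC once and no GGCGCC. The Eng stretch held CAGAC on either strand with first bases at -214 and -127, and no GGCGCC. RefSeq windows of 300 bases around the start (250 before, 50 after) were found for 9 of the receptors, 10 windows in all because Tgfbr1 has 2 starts, and Acvrl1 was not matched. CAGAC on either strand was in 5 of the 10 windows and in 49.6% of all 32851 windows. GGCGCC, which reads the same on both strands, was in 4 of the 10 windows and in 11.9% of all. Neither TGANTCA, an AP-1 core, nor TATAAA, the TATA box, was in any of the 10 windows on either strand, against 7.81% and 13.6% of all windows. The marked matches do not overlap, and a match is a description of the letters only. Receptor windows were rich in G and C, with 9 of 10 above the median of all windows (52.7%). Their GC content ran from 52% in the downstream Tgfbr1 window to 83.7% in that of Acvr1.

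Levels were compared between genes only per length, as normalized counts per kb of annotated exon. In CTRL cells the receptor pair for TGF-beta led the order, with Tgfbr2 at 200 ± 12.7 and Tgfbr1 at 177 ± 10.8 (SD, n = 3 for all groups), and their libraries overlapped. Eng followed at 162 ± 5.13, then the activin type I receptor Acvr1b at 136 ± 7.07, Acvrl1 at 104 ± 4.52 and the BMP type II receptor Bmpr2 at 85.6 ± 11.1. The type II receptors for activin were far lower, with Acvr2a at 50.3 ± 5.28, overlapping Acvr1 at 56.8 ± 2.95, and Acvr2b at 24.1 ± 3.71. Bmpr1a was the lowest at 8.92 ± 0.506. All other neighbours in this order were apart in every library of CTRL. These gaps depend on the exon length used. Per kb of the longest transcript the order of means was the same, but Tgfbr2 (202) and Tgfbr1 (201) were nearly level, Tgfbr1 overlapped Eng (192), Acvrl1 (118 to 127) overlapped Bmpr2 (105 to 136), and Acvr1 (83.3) was apart from Acvr2a (50.3). Against all genes tested, whose median was 61.6 per kb, Tgfbr2 lay at the 89.7th percentile, Acvr1b at the 78.2nd, Acvr2a at the 44.0th and Bmpr1a at the 15.9th.

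With activin A the top of the order turned over. Tgfbr1 reached 325 ± 24.6 per kb and stood apart from Tgfbr2 at 194 ± 13.2. Per kb of annotated exon Acvr1b, at 145 ± 4.70, came before Eng at 137 ± 4.62, and no neighbours overlapped. Per kb of the longest transcript Eng stayed above Acvr1b in every Act library, and Acvrl1 and Acvr1 each overlapped Bmpr2. The lower ranks stayed in the CTRL order, with Acvr1 at 77.9 ± 1.77 still below Bmpr2 and above Acvr2a. In Act+FST and in FST, Tgfbr1 and Eng overlapped behind Tgfbr2 per kb of annotated exon.

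**Figure D2:**
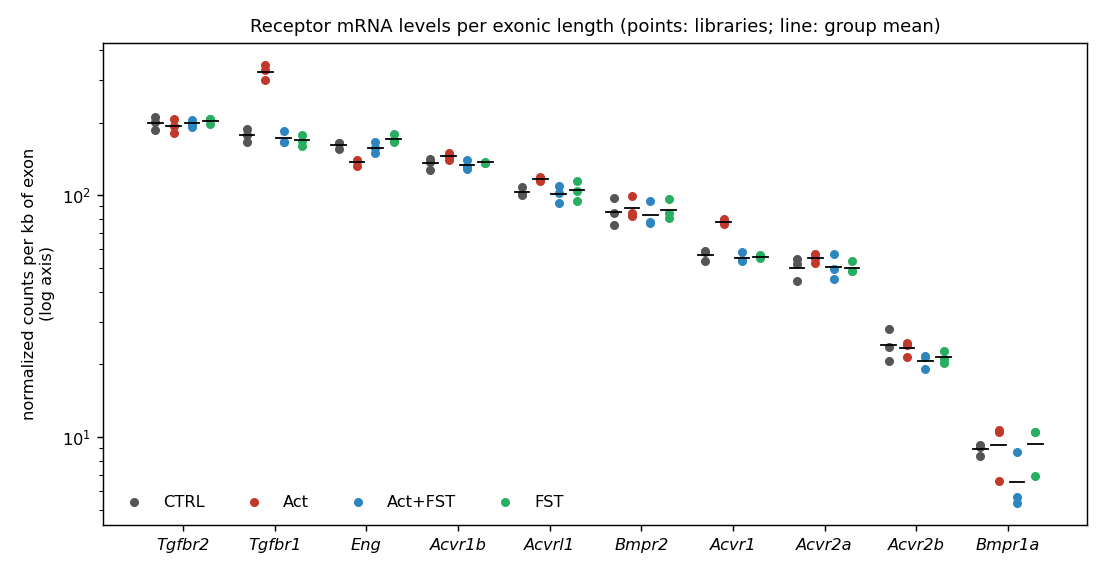
Receptor levels in normalized counts per kb of exon (vertical log axis), ordered by the CTRL mean, with a point per library, colors for the 4 groups and lines for group means. Levels span from 8.92 (Bmpr1a) to 200 (Tgfbr2) in CTRL, and the Act points of Tgfbr1 (mean 325) lie above every other receptor.

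Among the type I receptors, Tgfbr1 (ENSMUSG00000007613, chromosome 4, 47353222 to 47414931, plus strand, mm10), the kinase partner of TGFBR2, had the largest change. The CTRL libraries held 1224, 1083 and 1165 normalized counts of it and the Act libraries 2268, 1950 and 2149, with 1201, 1087 and 1083 in Act+FST and 1165, 1050 and 1093 in FST. The lowest Act library was above the highest of the other 9, which overlapped one another. The log2 difference from CTRL was 0.87 (SE 0.07, 95% interval 0.73 to 1.02, adjusted p = 3.79e-06 from limma), and within replicate numbers it was 0.89, 0.85 and 0.88. Of all genes tested, 8.22% changed by more on this scale. A fold change of at least 2 as well was reached by 5.66% of genes and by 0 receptors. Tgfbr1 came nearest to that fold, and with a correction for reads that share a start position, added after the data were seen, its log2 difference was 1.01.

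Acvr1 (ENSMUSG00000026836, chromosome 2, 58388644 to 58567157, minus strand), a type I receptor for BMPs that can also bind activin, was the other riser. It was counted 284, 258 and 281 times (normalized) in CTRL, 384, 377 and 367 in the Act libraries, 282, 261 and 258 in Act+FST, and 274, 270 and 265 in FST. Again the Act libraries lay above all 9 others. The log2 difference from CTRL was 0.45 (SE 0.05, 95% interval 0.34 to 0.57, adjusted p = 9.97e-05), a smaller difference than that of Tgfbr1 with intervals that do not meet.

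Acvrl1 (ENSMUSG00000000530, chromosome 15, 101128522 to 101145336, plus strand), the type I receptor that works with endoglin, was counted 464, 434 and 428 times (normalized) in CTRL and 495, 507 and 491 in the Act libraries. Act+FST had 467, 398 and 437, and FST had 490, 406 and 446. The Act libraries were above all others, though the lowest of them only by 1 count. The log2 difference from CTRL was 0.17 (95% interval 0.02 to 0.33, 1.13-fold) and was not called (adjusted p = 0.113). It was called in the fit with the replicate block, which compares libraries of the same replicate number (adjusted p = 0.0231), where 31.5% of all genes were called in either direction, and in a fit of the 6 libraries compared.

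Acvr1b (ENSMUSG00000000532, chromosome 15, 101174067 to 101213684, plus strand), the main type I receptor for activin, lies on the same chromosome as Acvrl1. It was counted 609, 564 and 624 times (normalized) in CTRL, 662, 621 and 636 in the Act libraries, 618, 570 and 587 in Act+FST, and 608, 602 and 604 in FST. Act and CTRL overlapped, and the difference of 0.10 (95% interval -0.01 to 0.20, adjusted p = 0.184) was not called. This interval lies below those of Acvr1 and Tgfbr1.

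Bmpr1a (ENSMUSG00000021796, chromosome 14, 34410734 to 34503341, minus strand), a BMP type I receptor, was measured with the least precision. Its counts were 58, 53 and 59 in CTRL, 67, 42 and 68 in Act, 55, 34 and 36 in Act+FST, and 67, 44 and 67 in FST. All 4 groups overlapped. The Act difference of 0.03 had an interval of -0.49 to 0.54 (adjusted p = 0.956), and differences within it were not detectable at this depth.

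The type II receptors showed no call. Tgfbr2 (ENSMUSG00000032440, chromosome 9, 116084293 to 116175360, minus strand), the TGF-beta binding partner of TGFBR1, was counted 1729, 1523 and 1648 times (normalized) in CTRL, 1697, 1579 and 1481 in the Act libraries, 1685, 1619 and 1564 in Act+FST, and 1701, 1690 and 1611 in FST. The groups overlapped throughout. With a difference of -0.04 and an interval of -0.17 to 0.08 (adjusted p = 0.682), a change as large as that of Tgfbr1 lies outside its bounds.

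Acvr2a (ENSMUSG00000052155, chromosome 2, 48814109 to 48903269, plus strand), which binds activin and several BMPs, was counted 309, 252 and 297 times (normalized) in CTRL and 313, 326 and 298 in the Act libraries. Act+FST libraries lay at 324, 283 and 257 and FST libraries at 304, 278 and 276. The groups overlapped, and the difference of 0.13 (95% interval -0.07 to 0.33, adjusted p = 0.371) was not called. Acvr2b (ENSMUSG00000061393, chromosome 9, 119402118 to 119434995, plus strand), its close relative, was counted 93, 81 and 110 times (normalized) in CTRL, 96, 95 and 84 in the Act libraries, 85, 75 and 84 in Act+FST, and 89, 83 and 80 in FST. Here too the groups overlapped, with a difference of -0.04 (95% interval -0.31 to 0.23, adjusted p = 0.878).

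Bmpr2 (ENSMUSG00000067336, chromosome 1, 59763400 to 59879014, plus strand), the BMP type II receptor, differed more by replicate number than by group. It was counted 1751, 1353 and 1516 times (normalized) in CTRL, 1794, 1514 and 1471 in the Act libraries, 1709, 1394 and 1379 in Act+FST, and 1742, 1447 and 1518 in FST. The 4 libraries with replicate number 1 ranged from 1709 to 1794 and the other 8 from 1353 to 1518. In the same libraries 4 of 10 fibroblast or stromal markers could be tested. Their summed counts ran from 90 to 256 in replicate 1 and from 49 to 72 in the others. The collagen genes Col1a1 and Col1a2 were high in replicate 1. Of the rest, Pdgfrb was highest in replicate 1 only in Act and FST, and Cxcl12 in no group (22, 36 and 37 in CTRL). The part of stromal cells in the Bmpr2 level was not tested. The Act difference was 0.05 (95% interval -0.19 to 0.30, adjusted p = 0.809).

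Eng (ENSMUSG00000026814, chromosome 2, 32646595 to 32682669, plus strand), the endoglin co-receptor known from endothelial cells and activated monocytes, was the only receptor called lower. It was counted 668, 668 and 632 times (normalized) in CTRL, 568, 533 and 562 in the Act libraries, 673, 604 and 633 in Act+FST, and 726, 672 and 688 in FST. Every Act library was below the other 9. The log2 difference was -0.24 (SE 0.05, 95% interval -0.35 to -0.13, adjusted p = 0.00419), and it was -0.23, -0.33 and -0.17 within replicate numbers.

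Endothelial markers were read beside Eng. Of 10, 6 could be tested, of which Pecam1 (1.12, adjusted p = 0.0333) and Flt1 (2.46, adjusted p = 0.00634) rose and Vwf (-0.71, adjusted p = 0.00244) fell, or 2 rose and 2 fell with the replicate block. Of all genes, 10.3% were called higher and 9.97% lower, and 31.5% in either direction with the block. The sum of the endothelial list, most of which was Vwf, ran from 1938 to 2295 in CTRL and 1410 to 1652 in Act. It was 1794 to 2430 in Act+FST and 2067 to 2531 in FST. The other tested markers were not called in the main fit. They were Kdr (mean 169 in CTRL and 117 in Act), Cdh5 (14.7 and 19.7) and Egfl7 (15 and 9.67). Tek, Tie1 and Esam were below the filter, and Emcn was not among the genes of the table. The part of endothelial cells in the Eng difference was not tested. In bulk RNA fewer cells of a type and less RNA per cell cannot be told apart.

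Counted by libraries that did not overlap, 3 receptors were higher in Act than in CTRL (Acvr1, Acvrl1 and Tgfbr1) and 1 was lower (Eng), where 18.0% and 17.6% of all genes did so. The median log2 difference was 0.07 over the 10 receptors and 0.0036 over all genes tested. The median size without the sign was 0.11 against 0.14. Parts of the exons overlap genes on the opposite strand, from 1.51% of bases in Eng (Fpgs) and 2.98% in Acvrl1 (Gm16031) to 4.57% in Bmpr1a (Gm17110) and 7.84% in Acvr2a (Orc4). The library kit keeps strand, and the strand setting of the counting is not given in the sources used here.

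The comparison of Act with Act+FST asked whether receptor mRNA differed when follistatin was present with activin A. Tgfbr1 was 1.89-fold higher in Act (log2 difference 0.92, 95% interval 0.77 to 1.06, adjusted p = 2.73e-06), and Acvr1 was higher by 0.49 (SE 0.05, adjusted p = 5.16e-05). Eng was lower (-0.20, adjusted p = 0.0122), a call that was lost without Act replicate 2 (adjusted p = 0.0577). Thus 2 of 10 receptors were called higher, where 11.1% of all genes were, and 1 lower, where 10.2% were. No type II receptor passed: Acvr2a differed by 0.12 (adjusted p = 0.399), Acvr2b by 0.17 (adjusted p = 0.380), Tgfbr2 by -0.03 (adjusted p = 0.742) and Bmpr2 by 0.09 (adjusted p = 0.623).

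With the replicate block the count of receptors called between Act and Act+FST went from 3 to 6, while 32.6% of all genes were called in that fit in either direction. Acvr1b differed by 0.11 (adjusted p = 0.114, and 0.0336 in the blocked fit), and its libraries did not overlap. Acvrl1 differed by 0.20 (adjusted p = 0.0653, and 0.0094 in the blocked fit). Bmpr1a differed by 0.49 with an interval from -0.03 to 1.01 (adjusted p = 0.175, and 0.0348 in the blocked fit), and its counts were among the lowest of the set.

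**Figure D3:**
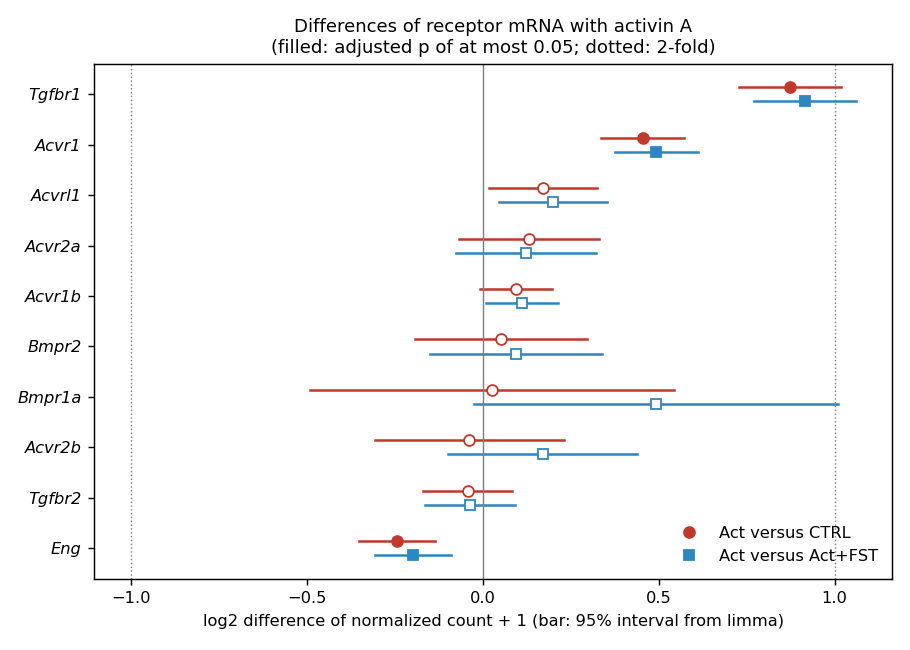
Log2 differences of the 10 receptors (horizontal axis, on normalized count + 1) for Act versus CTRL (circles) and Act versus Act+FST (squares) with 95% intervals from limma as bars. Filled symbols mark an adjusted p of at most 0.05, and these are Tgfbr1 (0.87 and 0.92), Acvr1 (0.45 and 0.49) and Eng (-0.24 and -0.20), all within the dotted lines at 2-fold.

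Act+FST was set against CTRL to see what of the activin difference was left with follistatin. No gene was called (0% of all genes, 0 receptors), with 655 genes and 0 receptors at an unadjusted p under 0.05 in limma. With the replicate block 80 genes (0.559%) were called, none of them a receptor. Tgfbr1 differed by -0.04 (95% interval -0.19 to 0.10), an interval that leaves out the rise seen with activin A alone. The widest difference was that of Bmpr1a, at -0.47 (95% interval -0.98 to 0.05).

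FST alone against CTRL likewise gave 0% of genes and 0 receptors called, with 299 genes and 0 receptors at an unadjusted p under 0.05 and 0 genes with the replicate block. Tgfbr1 differed by -0.07 (95% interval -0.21 to 0.08), Eng by 0.08 (95% interval -0.02 to 0.19) and Acvr2b by -0.16 (95% interval -0.43 to 0.11). Small changes within these intervals were not detectable with 3 libraries a group.

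Whether the activin A difference itself depended on follistatin was tested as a difference of differences, Act minus CTRL less Act+FST minus FST. It was 0.85 for Tgfbr1 (adjusted p = 3.78e-04) and 0.47 for Acvr1 (SE 0.08, 95% interval 0.30 to 0.64, adjusted p = 0.00325). These 2 of 10 receptors were called, where 3.99% of all genes were called in this direction. For Eng the value was -0.11 and was not called (adjusted p = 0.415), so a dependence of its fall on follistatin was not shown by this test.

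Ratios within a library do not depend on its scaling. The ratio of Tgfbr1 to Tgfbr2 per kb was 0.887, 0.891 and 0.886 in CTRL and 1.67, 1.55 and 1.82 in Act. In Act+FST it was 0.893, 0.841 and 0.868, and in FST it was 0.858, 0.778 and 0.850. The 3 Act libraries were above the other 9. Per kb of the longest transcript the ratio was 0.994 to 0.9997 in CTRL and 1.74 to 2.04 in Act. It was 0.944 to 1.002 in Act+FST and 0.873 to 0.963 in FST. The size of the gap without activin A thus depends on the length used, while Tgfbr2 was the higher in every CTRL and FST library by both lengths. Tgfbr1 and Acvr1b, which act through SMAD2 and SMAD3, together made up 64.9% ± 0.679 of the summed type I receptor level per kb in CTRL (64.8, 64.2 and 65.6%) and 69.7% ± 1.23 in Act (70.7, 68.3 and 70.1%). Their share was 64.7, 65.9 and 64.9% in Act+FST and 63.4, 65.3 and 64.1% in FST, so only the Act libraries stood apart. The ratio of Eng to Acvrl1 was 1.52, 1.62 and 1.56 in CTRL and lower, at 1.21, 1.11 and 1.21, in Act. It was 1.52, 1.60 and 1.53 in Act+FST and 1.56, 1.74 and 1.63 in FST. For each of the 3 measures the exact two-sided permutation test of Act against CTRL gave p = 0.1 (0.1 adjusted over the 3), the smallest that 3 against 3 libraries can give.

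**Figure D4:**
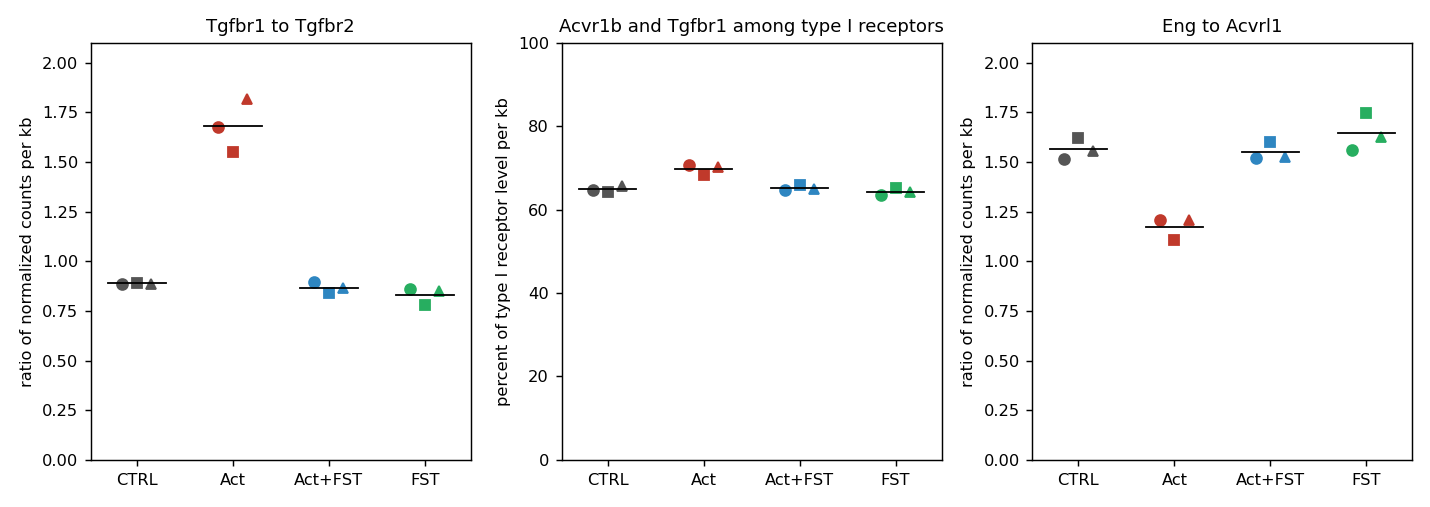
Ratio of Tgfbr1 to Tgfbr2, share of Acvr1b and Tgfbr1 in the summed type I receptor level, and ratio of Eng to Acvrl1, each from levels per kb of exon (vertical axes from 0) by group, with shapes for the replicate number and lines for means. The 3 Act libraries are apart from the other 9 in each panel, at 1.55 to 1.82, 68.3 to 70.7% and 1.11 to 1.21.

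The genes most like each called receptor were sought among 10633 genes with a mean of at least 50, by Pearson's r over the 12 libraries on the log2 scale, given here as a description since the points share 4 treatments. Tbc1d9 (r = 0.994), Mef2a (0.993) and Sipa1l2 (0.990) were nearest to Acvr1. Tbc1d9 (0.995) and Mef2a (0.991) were again near Tgfbr1, together with Lrrfip1 (0.992). Oit3 (0.978), Cavin1 (0.965) and Cask (0.964) were nearest to Eng.

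Other genes of the pathway were taken from fixed lists and compared between Act and CTRL. Beside the counts of calls in these lists, 10.3% of all genes tested were called higher and 9.97% lower. With the replicate block 31.5% were called in either direction. Of the SMAD transducers, 5 of 6 could be tested, and 2 rose: Smad5 (log2 difference 0.33, adjusted p = 0.00121), which relays BMP receptor signals, and Smad3 (0.30, adjusted p = 0.0418), which relays activin and TGF-beta signals. Of the 12 feedback inhibitors, 11 were tested and 9 rose, 4 of them at least 2-fold, and 0 fell. Pmepa1, which binds receptor SMADs, went from 24.3 to 806 normalized counts (5.35, adjusted p = 1.81e-05), and Smad6, which blocks BMP type I receptors, went from 11.3 to 82.3 (2.75, adjusted p = 1.83e-04).

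Of the other receptors and co-receptors of the family, 7 of 14 were tested, 4 fell and 1 rose, or 5 and 1 with the replicate block. Tgfbr3, betaglycan, went from 39.7 to 18.3 normalized counts (-1.15, adjusted p = 0.00696), and Cd109, a membrane protein that binds TGF-beta, from 285 to 139 (-1.04, adjusted p = 8.13e-04). Neo1 (-0.97, adjusted p = 0.0186) and Nrros (-0.16, adjusted p = 0.0435) also fell and are named after their values were seen. The BMP co-receptor Rgmb rose from 339 to 410 (0.27, adjusted p = 0.00739).

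Of the ligands, 9 of 33 were tested, 0 rose and 2 fell, while 2 rose and 2 fell with the replicate block. Those lower were Gdf15, from 209 to 97.3 normalized counts (-1.08, adjusted p = 2.00e-04), and Bmp2, from 386 to 197 (-1.02, adjusted p = 0.0259). Of the extracellular antagonists and latency proteins, 8 of 20 were tested, and Ltbp3, which tethers latent TGF-beta to the matrix, rose from 790 to 1063 (0.43, adjusted p = 0.00109) as the only call.

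All 28 receptor adaptors and regulators were tested, of which 3 rose and 5 fell, or 5 and 8 with the replicate block. Of all genes, 10.3% were called higher and 9.97% lower, and 31.5% in either direction with the block. Cav1, the caveolar protein that takes part in receptor uptake, rose from 13 to 208 normalized counts (3.96, adjusted p = 2.27e-04). The endosomal proteins Zfyve16 (-0.34, adjusted p = 0.00499) and Snx6 (-0.27, adjusted p = 3.21e-04) fell. Of the target genes of the BMP receptors, 5 of 9 were tested, and 3 rose, or 5 with the block. The 3 are Smad6, Smad7 (1.77, adjusted p = 2.10e-05) and Hey1 (1.39, adjusted p = 6.04e-04), which is named though not among the 2 largest rises. Id2 (0.15, adjusted p = 0.122) and Id3 (0.77, adjusted p = 0.0723) were called only with the block. Id1, Hes1 and Atoh8 were below the filter, and Id4 was not among the genes of the table. Whether these rises went through BMP receptors was not tested. Smad6 and Smad7 stand in the feedback list too, and Smad7 also among the adaptors and regulators.

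**Figure D5:**
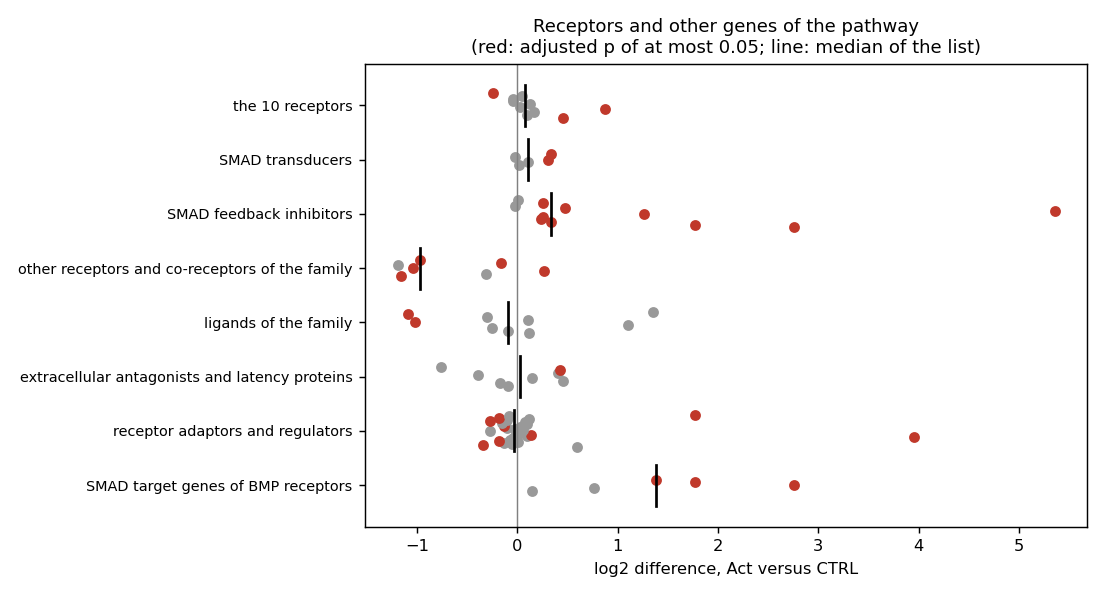
Log2 difference of Act versus CTRL (horizontal axis) for the tested genes of the receptor set and of the 7 pathway lists (rows), with a point per gene, red for an adjusted p of at most 0.05 and a line at each list's median. The receptors lie between -0.24 and 0.87, while feedback inhibitors reach 5.35 with 9 of 11 red.

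The cultures carried the markers of macrophages. All 10 macrophage markers were tested, 3 rose and 0 fell, and their sum ran from 12942 to 14062 normalized counts in CTRL and from 13734 to 14428 in Act. Monocyte markers summed to 1328 to 2201 in CTRL and 2564 to 2876 in Act, and 2 of 6 rose and 0 fell, or 3 and 2 with the replicate block. Their sum was 1547 to 2592 in Act+FST, which overlaps Act, and 1292 to 2143 in FST. Between Act and Act+FST 0 of the 6 were called, where 11.1% of all genes were higher and 10.2% lower. Calls in the other lists were 0 higher and 1 lower of 4 tested for fibroblast or stromal, 0 and 2 of 10 for neutrophil, 0 and 1 of 5 for dendritic cell, 0 and 0 of 2 for lymphocyte, 0 and 1 of 2 for erythroid, 0 and 0 of 3 for megakaryocyte and 1 and 1 of 3 for osteoclast markers. With the replicate block they were 2 higher and 1 lower for fibroblast or stromal, 1 and 2 for neutrophil, 2 and 1 for dendritic cell, 0 and 1 for megakaryocyte and 1 and 2 for osteoclast markers, with no change for the macrophage, lymphocyte and erythroid lists. Across all genes 10.3% were called higher and 9.97% lower, and 31.5% in either direction with the block. The part of these cell types in the receptor differences was not tested. Total normalized counts per library ran from 5643708 to 5955400, which does not show the original depth because the values were already scaled, and no gene exceeded 6378 in any library.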

How the data were processed

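Gene expression was measured in 12 libraries, 3 in each of 4 groups taken from the sample labels. The deposited values are a score: gene counts that the authors scaled per library and rounded, in a way not given in the sources used here. Per the paper's methods and the submitters' processing notes, single-end reads were trimmed with Trimmomatic 0.39, aligned to mm10 with STAR 2.7.9a and counted with featureCounts 2.0.2, and DESeq2 1.30.0 was used by the authors for their own tests. Because the values are not raw counts, limma 3.58.1 in R 4.3.3 (trend on the mean) was applied to log2(normalized count + 1) of the 14318 genes whose mean reached 5. All groups entered 1 model, and p-values were two-sided, with Benjamini-Hochberg adjustment over all genes tested. Any p-value called adjusted is from limma unless the exact permutation test is named. A call is an adjusted p of at most 0.05.

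Exon lengths came from GENCODE vM21 (18359 of 18376 identifiers found) and promoter windows from RefSeq. For the replicate block and the differences within replicate numbers, equal numbers in the labels were taken to pair the libraries. Deviations from group means correlated in all 18 same-number pairs (0.157 to 0.481). The main fit, which gives the adjusted p-values unless the block is named, did not use this pairing.

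The receptors and lists were chosen with earlier results of these data known. All receptors are named, and for each pathway list up to 2 called genes per direction with a mean of at least 20 and, for called receptors, the 3 most similar genes. A gene that is not reported here may be counted in a list. The alternatives are other pseudocounts (0.5 and 5), mean filters (none and 50), quantile and TMM scaling, a fold of 1.5, only the groups compared, the replicate block, leaving out each library and, for lengths, the longest transcript. A start-position correction, as if reads with the same start had been counted once, was chosen after seeing the data. Rounding and counting error limit the precision most for Bmpr1a and Acvr2b, and intervals cover the spread between these libraries only. Replicate pairs had a mean chi-square per gene of 1.46 to 4.78. Repeated sampling gives about 1 for unscaled counts, but these values were scaled per library. Whether every pair differed by more than sampling cannot be told from them.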

Additional observations from a re-analysis of the deposited data

Results flagged for a closer look

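For 2 receptors the activin A difference without follistatin differed from that with follistatin, by the difference of differences over the 4 groups. It was 0.85 on the log2 scale for Tgfbr1 and 0.47 for Acvr1, with adjusted p-values from limma between 2.05e-07 and 0.00159 for Tgfbr1 and between 3.72e-04 and 0.0108 for Acvr1 over the alternatives.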

How the results depend on the processing

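Tgfbr1 and Acvr1 were called higher and Eng lower in Act versus CTRL under every alternative run. With the replicate block the receptors called in Act versus Act+FST went from 3 to 6, where 32.6% of all genes were called, and in Act versus CTRL from 3 to 4, where 31.5% were. Beside the calls gained by Acvr1b, Acvrl1 and Bmpr1a, the block changed no other call of a receptor. The share of all genes at a fold of at least 1.5, in place of 2, is not reported here. At that fold 1 receptor, Tgfbr1, was called in Act versus CTRL, 1 in Act versus Act+FST and 1 in the difference of differences. With the start-position correction 1 receptor, Tgfbr1, was called at a fold of at least 2 in Act versus CTRL and in Act versus Act+FST. The main fit gave 0 in both. The share of all genes at that fold with the correction is not reported here. The correction also raised the difference in the share of Acvr1b and Tgfbr1 from 4.84 to 6.06 percentage points (exact permutation p = 0.1).

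Signs turned only for uncalled genes when a library was left out. The range over the left-out libraries in Act versus CTRL was -0.0913 to 0.250 for Bmpr1a, -0.143 to 0.0754 for Acvr2b, -0.0930 to 0.00514 for Tgfbr2 and -0.0381 to 0.148 for Bmpr2, and in Act versus Act+FST it was -0.0849 to 0.0133 for Tgfbr2. The cause was not tested. The median log2 difference of all genes, Act versus CTRL, was at most 0.0094 in size over the deposited, quantile and TMM scalings. Of the checks on single receptors, 462 kept their sign and call, 1 lost its call, 8 gained it and 9 changed sign.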
